A study of Mus musculus with 4 samples.

Results

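The genes described here are 37 glycolysis and hypoxia-induced genes, chosen by name from the 19491 genes listed in at least 1 library. They comprise 19 glycolytic members (14 enzymes, 2 transporters for glucose import and lactate export, and 3 regulators of glycolytic flux) and 18 other hypoxia-induced members (4 of oxygen sensing, 3 mitochondrial proteins, 3 enzymes of the endoplasmic reticulum and 8 others). All were measured in CD45+ hematopoietic cells, sorted by FACS from the brain or the dura mater of 8-week-old C57BL/6J mice and profiled by 10x Chromium single-cell RNA sequencing of transcript 3' ends. Injured (INJ) mice were sampled 3 days after photothrombotic injury (PTI), in which light-activated Rose Bengal clots the vessels of the dura mater, pia mater and brain, and control (CT) mice are taken here to be the study's sham-operated group. The 4 libraries were CT brain, CT dura, INJ brain and INJ dura, with 1 library per condition and no stated number of mice in each. Cells were therefore not replicates, no test of injury was possible, and every interval below covers counting error only, not the spread between mice.

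Glycolysis converts glucose to pyruvate in the cytosol, and under low oxygen the pyruvate is reduced to lactate and exported. Hypoxia-inducible factor (HIF) is a transcription factor whose alpha subunit is hydroxylated by oxygen-dependent prolyl hydroxylases (Egln genes), then recognized by the von Hippel-Lindau protein (Vhl) and degraded. When oxygen falls, HIF accumulates and raises transcription of most glycolytic enzymes, of glucose transporters and of genes for mitophagy, collagen hydroxylation, lipid storage and its own hydroxylases. Activated macrophages are known for a high rate of glycolysis.

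HIF binds DNA at a short core, written ACGTG or GCGTG, and the 250 bases upstream of the RefSeq gene starts (GRCm38.p6) were searched for these letters on both strands. A window was found for 35 of the 37 genes, with none for Bnip3l and Ndrg1. Either core was present in 26 of 35 windows (74.3%), against 38.6% of all 32851 windows in the table. The members were known as hypoxia-induced genes when listed, and a match is a description of letters and not a binding site. ACGTG was present in 18 of the 35 (51.4%, against 16.6% of all windows) and GCGTG in 17 (48.6%, against 28.2%). By list, 14 of 19 glycolytic and 12 of 16 other hypoxia-induced windows held a core. The 6 windows below belong to members with the largest differences between macrophages of injured and CT brain, and are shown because 4 of them hold cores and 2, of Hilpda and Mif, hold none. Capitals mark the cores as read on either strand (CACGT and CACGC on the opposite strand), 5' to 3' towards the gene. The windows lie at Egln3 chr12:54203875-54204124 (minus strand), P4ha2 chr11:54100674-54100923 (plus strand), Pgam1 chr19:41911621-41911870 (plus strand), Bnip3 chr7:138909507-138909756 (minus strand), Hilpda chr6:29272238-29272487 (plus strand) and Mif chr10:75860278-75860527 (minus strand).
Egln3: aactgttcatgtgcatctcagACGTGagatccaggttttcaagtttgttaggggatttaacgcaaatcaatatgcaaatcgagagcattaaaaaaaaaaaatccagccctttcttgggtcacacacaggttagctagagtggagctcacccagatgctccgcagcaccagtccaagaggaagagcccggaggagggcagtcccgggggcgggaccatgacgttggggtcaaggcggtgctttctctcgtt
P4ha2: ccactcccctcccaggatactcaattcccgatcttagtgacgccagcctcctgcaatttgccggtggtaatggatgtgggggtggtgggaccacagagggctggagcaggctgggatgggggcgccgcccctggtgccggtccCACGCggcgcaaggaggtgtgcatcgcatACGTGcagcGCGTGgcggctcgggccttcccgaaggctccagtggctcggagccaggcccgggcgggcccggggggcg
Pgam1: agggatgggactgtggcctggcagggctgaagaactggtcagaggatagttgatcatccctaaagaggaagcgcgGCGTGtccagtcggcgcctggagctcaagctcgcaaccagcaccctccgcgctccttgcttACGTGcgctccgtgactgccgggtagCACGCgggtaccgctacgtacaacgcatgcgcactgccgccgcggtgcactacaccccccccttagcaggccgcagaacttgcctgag
Bnip3: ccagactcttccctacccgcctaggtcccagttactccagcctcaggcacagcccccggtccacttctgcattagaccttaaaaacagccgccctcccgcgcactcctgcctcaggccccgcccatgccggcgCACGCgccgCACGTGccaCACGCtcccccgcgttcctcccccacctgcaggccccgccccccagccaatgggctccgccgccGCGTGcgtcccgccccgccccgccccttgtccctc
Hilpda: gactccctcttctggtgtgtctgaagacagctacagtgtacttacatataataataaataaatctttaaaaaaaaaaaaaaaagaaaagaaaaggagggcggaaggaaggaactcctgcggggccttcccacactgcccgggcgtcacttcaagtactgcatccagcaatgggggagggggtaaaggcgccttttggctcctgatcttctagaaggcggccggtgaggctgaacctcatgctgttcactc
Mif: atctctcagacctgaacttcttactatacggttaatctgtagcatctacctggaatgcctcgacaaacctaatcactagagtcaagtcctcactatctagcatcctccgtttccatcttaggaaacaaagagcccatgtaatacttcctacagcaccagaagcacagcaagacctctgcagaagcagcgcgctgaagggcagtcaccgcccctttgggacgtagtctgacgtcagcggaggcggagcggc
The Bnip3 window held 5 matches, those of P4ha2 and Pgam1 held 3 each and that of Egln3 held 1. The end of the Bnip3 window overlaps the first bases of an annotated Bnip3 transcript, and the P4ha2 window lies wholly inside the GENCODE gene model of P4ha2 (chr11:54100095-54131665), whose start is earlier than that of RefSeq.

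The 4 libraries held 3515 to 5925 barcodes and 49003977 to 115154317 unique molecular identifiers (UMIs, each 1 counted transcript), the largest being INJ brain. After filters on genes, mitochondrial share and doublets, 14098 of 18969 cells remained. All 6 pairs of libraries shared 3 to 11 barcodes. Clusters were made without the members and named "-like" from marker lists. Levels are UMIs of a gene per 1000000 UMIs of its class and library (CPM), a difference is the log2 ratio of 2 such levels, and a gene was called higher or lower when it passed 2-fold and the 2 groups held 100 UMIs or more in total. Because 3' tags were counted, a gene is compared only with itself across cells.

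The main comparison set the 1432 infiltrating-like macrophages of INJ brain, marked by Arg1 and Gpnmb, against the 369 Lyve1+ and Lyve1- macrophages of CT brain. Most enzymes from phosphofructokinase to lactate dehydrogenase were higher in the infiltrating-like macrophages, the hexokinases were not, and the most raised members outside glycolysis were the HIF hydroxylase Egln3 and the lipid droplet protein Hilpda. Of the 19 glycolytic members 11 were higher and 1 was lower, with a median log2 ratio of 1.56. Among the 17 other hypoxia-induced members with 100 UMIs, 12 were higher and 0 lower, with a median of 1.77. Over all 9692 genes with 100 UMIs the median was -0.13, and 7.03% of them were called higher and 13.6% lower. Adm, a vasodilator peptide, had 41 UMIs in both groups together and was not called.

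Pfkl, Aldoa and Tpi1 act between hexose phosphate and triose phosphate. Pfkl, the liver-type phosphofructokinase of the committed step, was at 33.1, 33.5, 27.9 and 50.9 CPM in the macrophages of CT brain, CT dura, INJ dura and INJ brain. In infiltrating-like macrophages it was at 168 CPM (log2 ratio to CT brain 2.34, 95% interval 2.12 to 2.58). Aldoa, the aldolase that cleaves fructose bisphosphate, was at 195, 217, 220.1 and 363 CPM in the same 4 macrophage groups and at 1278 CPM in infiltrating-like macrophages (2.71, 2.61 to 2.80). Tpi1, which interconverts the triose phosphates, was at 109, 104, 99.8 and 181 CPM against 716 CPM (2.72, 2.59 to 2.85). In each case INJ brain held the highest of the 4 macrophage levels, and the infiltrating-like level lay above all 4. Aldoa has 2 gene models of the same symbol on chromosome 7, and its counts cannot be divided between them here. Tpi1 overlaps Spsb2 on the opposite strand only.

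The enzymes of the lower pathway behaved alike. Gapdh, which makes NADH from glyceraldehyde phosphate, was at 639.7, 550.4, 581 and 1053 CPM in the 4 macrophage groups and at 3001 CPM in infiltrating-like macrophages (2.23, 2.18 to 2.28). Pgk1, the first enzyme of the pathway to yield ATP, was at 67.9, 78.4, 86.4 and 168 CPM against 533 CPM (2.97, 2.81 to 3.14). Pgam1, the phosphoglycerate mutase, was at 98.7, 97.6, 96.5 and 207 CPM against 829.8 CPM, the highest glycolytic ratio (3.07, 2.94 to 3.21). INJ brain again held the highest of the 4 macrophage levels of each, and the other groups had no common order. Eno1, the enolase, was at 156, 116, 145 and 198 CPM against 641 CPM (2.03, 1.93 to 2.14). Pkm, which yields pyruvate, was at 240.1, 228, 256 and 387 CPM against 1518 CPM (2.66, 2.58 to 2.75). Ldha, which reduces pyruvate to lactate, was at 155, 179, 193 and 282 CPM against 810.3 CPM (2.39, 2.28 to 2.50). These gene symbols have many processed pseudogenes in the mouse genome, and the counting of reads shared with them is not given in the sources used here.

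**Figure D1:**
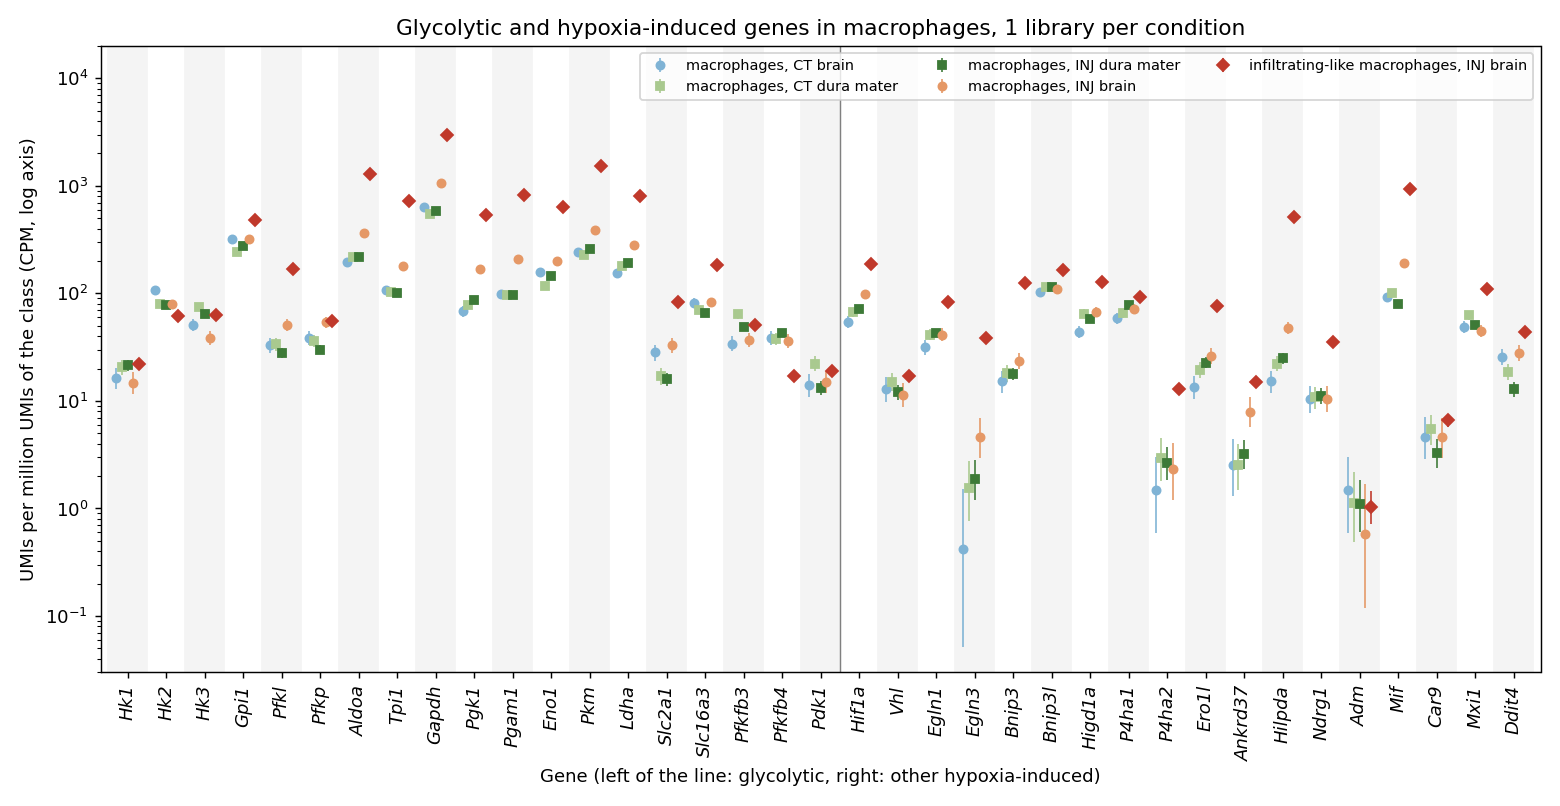
Levels of the members in CPM on a log axis in 5 groups: Lyve1+ and Lyve1- macrophages of CT brain, CT dura, INJ dura and INJ brain, and infiltrating-like macrophages of INJ brain, with bars for the exact Poisson 95% interval. Egln3 and Hilpda show the widest gaps, with 38.8 and 509 CPM in infiltrating-like macrophages against 0.422 and 15.2 CPM in macrophages of CT brain, whereas Hk2 and Pfkfb4 lie below the CT brain level.

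The transporters were higher by less than most of the called enzymes. The glucose importer Slc2a1 was at 28.3, 16.9, 16.0 and 32.9 CPM in macrophages of CT brain, CT dura, INJ dura and INJ brain and at 83.5 CPM in infiltrating-like macrophages (1.56, 1.31 to 1.83). The lactate exporter Slc16a3 was at 81.2, 70.0, 66.3 and 82.4 CPM against 185 CPM (1.19, 1.04 to 1.34). These macrophage levels pool Lyve1+ and Lyve1- cells. In CT brain the Lyve1- cells, given below, lay far under the pooled Slc16a3 level and the Lyve1+ cells therefore above it, so this ratio depends on their mix. Of the hexokinases, which trap glucose in the cell, Hk1 was at 22.2 against 16.2 CPM (0.45) and Hk3 at 62.8 against 51.2 CPM (0.29), whereas Hk2 was at 61.1 against 107 CPM (-0.81, -0.95 to -0.66). None of these 3 passed 2-fold, and neither did Gpi1 (0.59), Pfkp (0.50), Pfkfb3 (0.59) or the pyruvate dehydrogenase kinase Pdk1 (0.44). Pfkfb4, an enzyme that sets the activator of phosphofructokinase, was the 1 member called lower, at 38.6, 37.7, 42.4 and 36.4 CPM in the 4 macrophage groups and 16.98 CPM in infiltrating-like macrophages (-1.18, -1.43 to -0.94).

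The oxygen-sensing genes differed in size. Hif1a, the inducible HIF subunit, was at 54.4, 66.5, 71.9 and 97.9 CPM in macrophages of CT brain, CT dura, INJ dura and INJ brain and at 187 CPM in infiltrating-like macrophages (1.78, 1.60 to 1.97). Its protein is controlled mainly after translation, which these data do not measure. Egln1, the main prolyl hydroxylase, was at 31.4, 41.4, 42.6 and 41.2 CPM against 83.1 CPM (1.40, 1.17 to 1.65). Egln3, the hydroxylase most responsive to HIF, had 2 UMIs (0.422 CPM) in macrophages of CT brain, 1.54, 1.89 and 4.64 CPM in those of CT dura, INJ dura and INJ brain, and 1272 UMIs (38.8 CPM) in infiltrating-like macrophages, a ratio of 6.52 whose interval (4.67 to 9.57) is set by the 2 UMIs. Egln3 was detected in 38.5% of the infiltrating-like macrophages and in 3.76% of the macrophages of the same library, whose median depths were 21508 and 10011 UMIs, and with each cell thinned to 2000 UMIs these shares were 7.96% and 0.471%. Vhl was at 12.9, 14.95, 12.1 and 11.4 CPM against 17.01 CPM (0.40, 0.02 to 0.81) and was not called.

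The mitochondrial and endoplasmic reticulum members were higher in part. Bnip3, a mitophagy receptor, was at 15.2, 18.0, 17.9 and 23.6 CPM in the 4 macrophage groups and at 125 CPM in infiltrating-like macrophages (3.04, 2.71 to 3.40). Its relative Bnip3l was at 103 and 166 CPM in CT brain and infiltrating-like macrophages (0.70) and was not called. Higd1a, a factor of the respiratory chain, was at 43.9, 64.8, 58.3 and 67.0 CPM against 128 CPM (1.54, 1.34 to 1.75). P4ha2, a subunit of the prolyl hydroxylase that modifies collagen, was at 1.48, 2.93, 2.68 and 2.32 CPM against 13.01 CPM (3.14, 2.09 to 4.46, from 7 and 427 UMIs), and P4ha1 did not pass 2-fold (0.68). Ero1l, which passes electrons to oxygen as disulfide bonds form, was at 13.5, 19.6, 22.6 and 26.3 CPM against 76.8 CPM (2.51, 2.15 to 2.89). The infiltrating-like level of each called member of this group lay above all 4 macrophage levels.

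Among the other hypoxia-induced members, Hilpda, which inhibits the lipase of lipid droplets, was at 15.2, 22.2, 24.9 and 47.4 CPM in macrophages of CT brain, CT dura, INJ dura and INJ brain and at 509 CPM in infiltrating-like macrophages (5.07, 4.73 to 5.42). It was detected in 79.1% of the infiltrating-like macrophages and in 13.3% of the CT brain macrophages, whose median depths were 21508 and 11459 UMIs; with each cell thinned to 2000 UMIs these shares are lower, at 46.5% and 2.45%. Mif, a macrophage cytokine that many cell types make, was at 92.6, 100.2, 80.3 and 190.1 CPM against 944 CPM (3.35, 3.21 to 3.49). Ankrd37, an ankyrin repeat protein, was at 2.53, 2.52, 3.23 and 7.94 CPM against 15.1 CPM (2.58, 1.76 to 3.54). The gene overlaps Lrp2bp and Ufsp2 on the opposite strand only. Ndrg1, a stress-induced gene, was at 10.3, 10.8, 11.2 and 10.5 CPM against 35.2 CPM (1.77, 1.35 to 2.21). Mxi1, an antagonist of Myc, was at 49.1, 62.5, 51.0 and 44.9 CPM against 109 CPM (1.16, 0.96 to 1.35). For Ndrg1 and Mxi1 the 4 macrophage groups lay close together, without the step in INJ brain seen for Hilpda, Mif and Ankrd37. Car9, a carbonic anhydrase, was at 6.61 against 4.64 CPM (0.51, -0.12 to 1.22), and Ddit4, an inhibitor of mTORC1, at 43.9 against 25.7 CPM (0.77). Neither was called.

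Markers of other cells differed between the 2 groups. The mature granulocyte marker list (10 of 10 genes detected in each group) summed to 16688 CPM in the macrophages of CT brain and 3493 CPM in the infiltrating-like macrophages, the B cell list (10 of 10) to 447 and 63.1 CPM, and the neuron list (4 of 5) to 3.80 and 0.457 CPM. The granulocyte list includes Cxcl2, which the paper also reports in macrophages of the dura mater. The part of the granulocyte and B cell signal in the ratios was not tested. Against the macrophages of CT dura as reference instead, the medians were 2.18 for glycolytic and 1.49 for other hypoxia-induced members, a choice made after seeing the data. Infiltrating-like macrophages outside INJ brain were few. The 25 of INJ dura held 4136 CPM of glycolytic members in sum, against 10532 CPM in INJ brain, with Hilpda at 112 CPM and Egln3 at 0, which allows up to 3 UMIs. The 7 of CT brain held 4837 CPM of glycolytic members.

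Within INJ brain the infiltrating-like macrophages were also set against 425 Lyve1+ or Lyve1- macrophages from that library, so that no difference between libraries enters. The medians were 1.34 for glycolytic members (11 of 19 higher, 1 lower) and 1.01 for the other hypoxia-induced members (9 of 17 higher, 0 lower), with 5.7% of all genes called higher and 9.56% lower. Hilpda (3.42), Egln3 (3.06), P4ha2 (2.49), Bnip3 (2.41) and Mif (2.31) had the largest ratios. This comparison and the main one share the infiltrating-like cells.

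Against the microglia-like cells of INJ brain the infiltrating-like macrophages had median log2 ratios of 0.25 for glycolytic and 0.12 for other hypoxia-induced members, beside 6.56% of all genes called higher and 12.3% lower. These levels pool unlike microglia-like cells. In the 406 of 629 that form the main finer cluster described below, Aldoa, Tpi1, Pgk1, Pgam1 and Pkm were at 18.7% to 22.6% of the infiltrating-like level. In the infiltrating-like macrophages Hilpda was higher than in all 629 microglia-like cells, at 509 against 128 CPM (1.99, 1.91 to 2.07), as were Ddit4 (1.40) and Car9 (1.14). The members called higher were a share of the 37 not far above the 6.56% of all genes. Of the 37 members 5 were lower in the infiltrating-like macrophages, a share close to the 12.3% of all genes. Hk2, the inducible hexokinase, was at 61.1 against 179 CPM (-1.55). The others were Adm (-2.60, -3.24 to -1.98), P4ha2 (-1.32), Pdk1 (-1.05) and Pfkfb3 (-1.01). Against the Ly6C hi monocyte-like cells of INJ brain 7 of the 37 members were higher, beside 12.1% of all genes higher and 6.88% lower. The 7 were Tpi1, Egln3, Bnip3, P4ha2, Hilpda, Mif and Car9, with Hilpda at 509 against 79.7 CPM (2.67, 2.52 to 2.83).

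Other genes of these pathways were read from lists of 75 genes, 73 of them listed in the files. Among the 16 other glycolysis genes with 100 UMIs, 5 were higher and 2 lower in infiltrating-like macrophages than in CT brain macrophages, with a median of 0.57. Of all genes in this comparison 7.03% were higher and 13.6% lower. Slc2a3, the glucose importer of neurons and leukocytes, was at 2.96 against 39.0 CPM (-3.72, -4.09 to -3.36). Slc2a3 stood at 504 CPM in granulocyte-like cells of CT brain. The granulocyte marker list was also higher in the CT brain macrophages, and the part of granulocyte RNA in the Slc2a3 ratio was not tested. Of the 35 other hypoxia-related genes with 100 UMIs, 15 were higher and 4 lower, with a median of 0.32. In both lists the genes called lower were a share close to the 13.6% of all genes. Vegfa, the main angiogenic target of HIF, was at 245 against 16.0 CPM (3.93, 3.61 to 4.28). The lipid droplet coat gene Plin2 was at 1943 against 192 CPM (3.34, 3.25 to 3.44), and the creatine importer Slc6a8 at 68.0 against 1.48 CPM (5.53, 4.48 to 6.84). Angptl4, an inhibitor of lipoprotein lipase, had 1 UMI in the CT brain macrophages and a ratio of 6.66 (4.18 to 11.96).

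**Figure D2:**
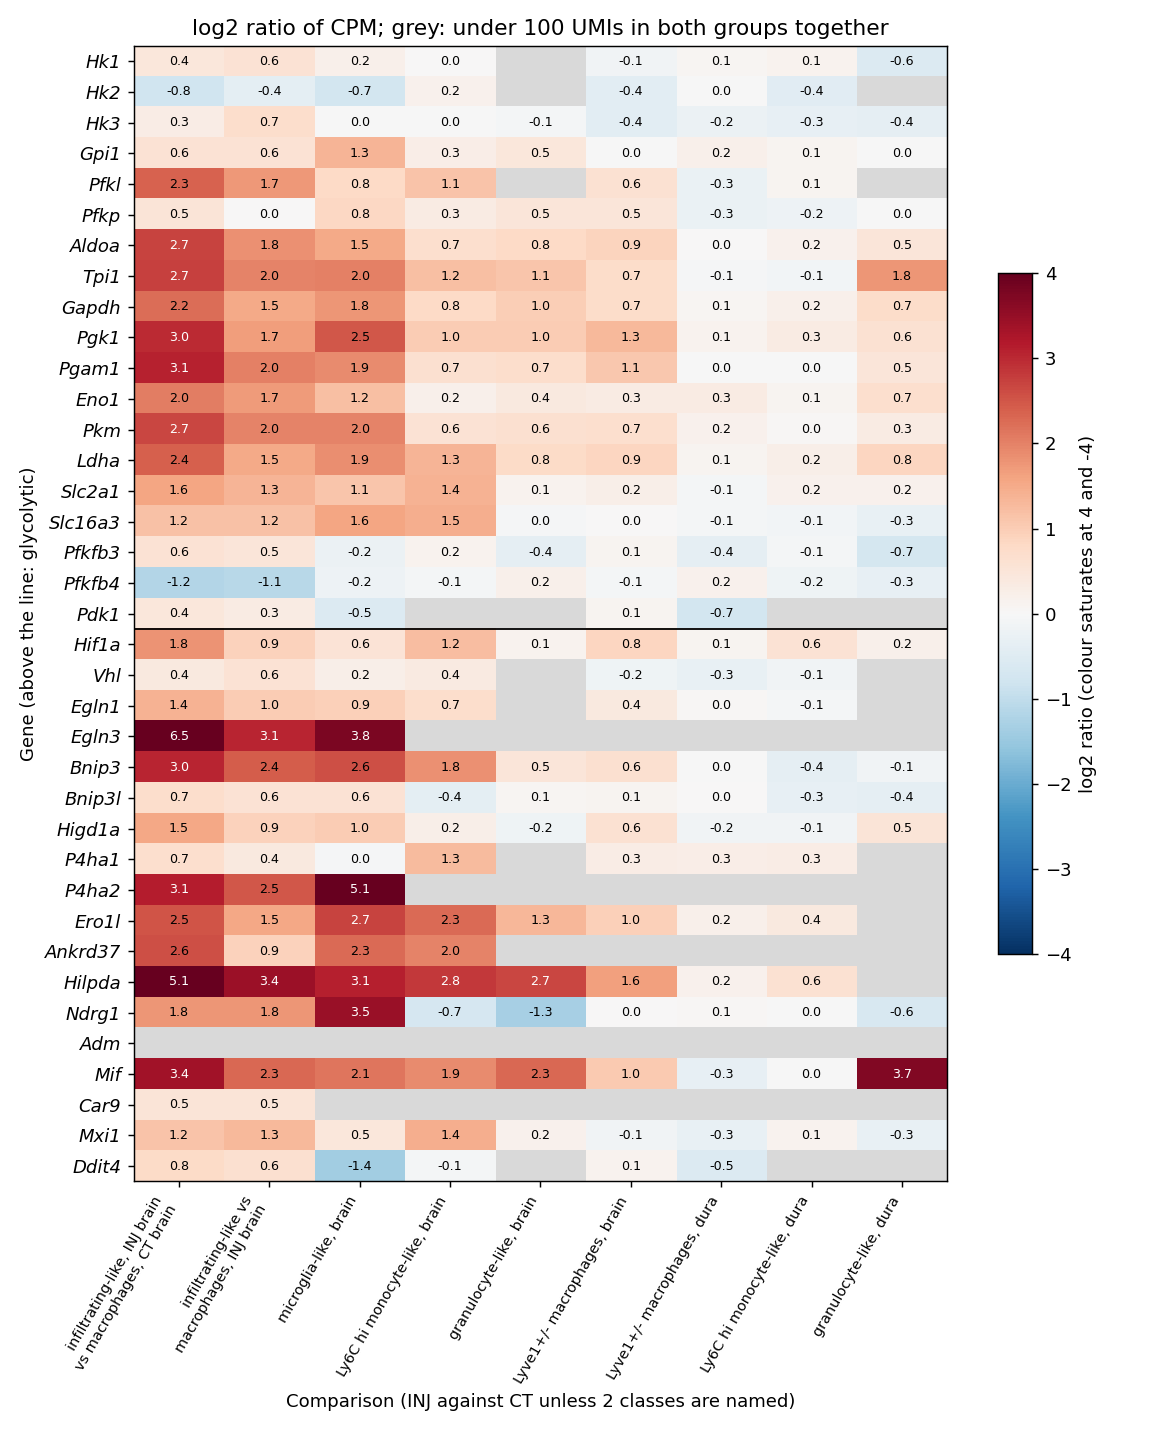
Log2 ratios of the 37 members (rows, by role) in 9 comparisons (columns), with colour for the size and direction and grey where both groups together held fewer than 100 UMIs. The columns for INJ brain against CT brain are mostly positive in microglia-like cells and Ly6C hi monocyte-like cells, while those for macrophages and Ly6C hi monocyte-like cells of INJ dura against CT dura stay under 2-fold, with medians of -0.02 and 0.00 in macrophages.

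In macrophages that were not infiltrating-like, injury of the brain was accompanied by small differences. Between 425 cells of INJ brain and 369 of CT brain the medians were 0.34 (2 of 19 glycolytic members higher) and 0.39 (2 of 13 others higher), beside 0.802% of all genes called higher and 0.949% lower. The 4 were Pgk1, at 168 against 67.9 CPM (1.31, 1.12 to 1.499), Pgam1 (1.07), Hilpda, at 47.4 against 15.2 CPM (1.64, 1.26 to 2.04), and Mif (1.04). Their number was 0 when doublets were kept or cells thinned and 12 when cells were gated on their markers directly. In Lyve1- macrophage-like cells 9 of 27 members were higher (beside 1.93% of all genes higher and 0.839% lower), among them Hilpda at 47.5 against 10.3 CPM (2.21) and Slc16a3 at 73.9 against 16.0 CPM (2.21). In Lyve1+ macrophage-like cells it was 1 of 27, Hilpda, at 47.4 against 22.4 CPM (1.08, 0.55 to 1.64), beside 0.569% of all genes. The difference between these 2 classes was not tested. Transcripts of Arg1, Gpnmb, Spp1 and Fn1 were found in the Lyve1+ cells of INJ brain at 0.959% to 11.9% of the infiltrating-like level. In the Lyve1- cells of INJ brain the range was 1.54% to 27.4%. In CT brain the highest shares were 2.46% and 7.80%. The part of free RNA or of admixed infiltrating-like cells in these differences was not tested. A finer cluster of 29 of the 252 Lyve1- macrophage-like cells of INJ brain, which infiltrating-like macrophages share, held 7940 CPM of glycolytic members and 358 CPM of Arg1, whereas the main finer cluster of 223 cells held 2819 CPM, against 2367 CPM in the same cluster of CT brain.

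In the dura mater few members differed by 2-fold. Macrophages of INJ dura and CT dura (794 and 553 cells) had medians of -0.02 and 0.00, with 0 of 32 members called in either direction beside 0.548% and 0.484% of all genes called higher and lower. Gapdh was at 581 against 550.4 CPM, Pgk1 at 86.4 against 78.4 CPM and Hilpda at 24.9 against 22.2 CPM. For the Ly6C hi monocyte-like cells (266 and 279) the medians were 0.07 and -0.01, with 0 of 30 called beside 1.23% and 0.69%. Granulocyte-like cells of the dura had 2 of 23 members called higher, Tpi1 at 125 against 36.5 CPM (1.77, 1.37 to 2.19) and Mif at 188 against 14.4 CPM (3.71, 3.13 to 4.34), beside 10.5% of all genes higher and 3.67% lower, and their median depths were 7719 and 4947 UMIs. With cells gated on their markers directly, these ratios were 0.61 for Tpi1 and 1.36 for Mif. No member was called between the macrophages or the granulocyte-like cells of CT brain and CT dura, where 1.1% and 1.9% of all genes were higher in brain and 2.99% and 1.44% were lower, and in Ly6C hi monocyte-like cells only Ddit4 was, at 27.3 CPM in brain and 7.15 CPM in dura (1.93, 1.31 to 2.59), beside 0.611% of all genes higher and 0.643% lower.

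Microglia, the resident macrophages of the brain parenchyma and marked here by Tmem119 and P2ry12, also differed after injury. Between 629 microglia-like cells of INJ brain and 434 of CT brain, 11 of 19 glycolytic members were higher (median 1.22) and 9 of 16 others were higher and 1 lower (median 1.58), beside 3.36% of all 8818 genes called higher and 3.03% lower. Pgk1 was at 496 against 89.3 CPM (2.47, 2.34 to 2.61), Tpi1 at 469 against 116 CPM (2.02, 1.89 to 2.14) and Gapdh at 2741 against 805 CPM (1.77, 1.72 to 1.81). Gpi1, the isomerase above phosphofructokinase, was called here at 414 against 163 CPM (1.35, 1.24 to 1.46), and Pfkl was not (0.79). Hk2 was at 179 against 300.2 CPM (-0.74). Outside glycolysis P4ha2 was at 32.5 against 0.959 CPM (5.08, 3.84 to 6.71, from 347 and 5 UMIs), Egln3 at 33.9 against 2.49 CPM (3.77, 2.98 to 4.69) and Ndrg1 at 19.1 against 1.73 CPM (3.47, 2.51 to 4.62). Hilpda was at 128 against 14.95 CPM (3.1, 2.77 to 3.45), and Hif1a did not pass 2-fold (0.55). Ddit4 was lower, at 16.6 against 43.7 CPM (-1.39, -1.68 to -1.10).

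These differences were not spread evenly over the microglia-like cells. Clustered more finely, 406 of the 629 cells of INJ brain and 393 of the 434 of CT brain fell in a main finer cluster. They held 3230 and 2845 CPM of glycolytic members in sum (log2 ratio 0.18, 0.15 to 0.22), with 0 of 17 glycolytic members called higher or lower. Of 12 other hypoxia-induced members, 1 was higher and 1 lower, with a median of 0.24. The median over all 7041 genes was -0.07. A deep finer cluster, with median depths of 32380 and 28841 UMIs, held 218 cells (34.7%) of INJ brain and 39 (8.99%) of CT brain. There the glycolytic sum was 11164 against 3497 CPM (1.67, 1.63 to 1.72), and 11 of 19 glycolytic and 10 of 15 other members were higher. Over all 6915 genes with 100 UMIs the median was -0.026. The share of all genes called was not computed for either finer cluster, so these counts have no such share beside them. Pgk1 reached 695 CPM in the deep cells of INJ brain and P4ha2 reached 48.8 CPM, which were 130.3% and 375% of the infiltrating-like levels, whereas Hilpda was at 182 CPM (35.8%). The same deep cells held Spp1 at 4182 CPM (62.7% of the infiltrating-like level) and Arg1 at 88.1 CPM (4.64%), with the microglial marker Tmem119 at 295 CPM against 1253 CPM in the main cluster. S100a8, a granulocyte marker, was at 1395 CPM in the deep cells of INJ brain and 2318 CPM in those of CT brain. The leading genes of the 39 deep cells of CT brain also included the T cell marker Trbc2 and the granulocyte marker Retnlg. The part of doublets or of RNA from other cells in the deep cluster was not tested. Without the deep cluster the medians over microglia-like cells were 0.17 and 0.24, an alternative chosen after the data were seen.

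**Figure D3:**
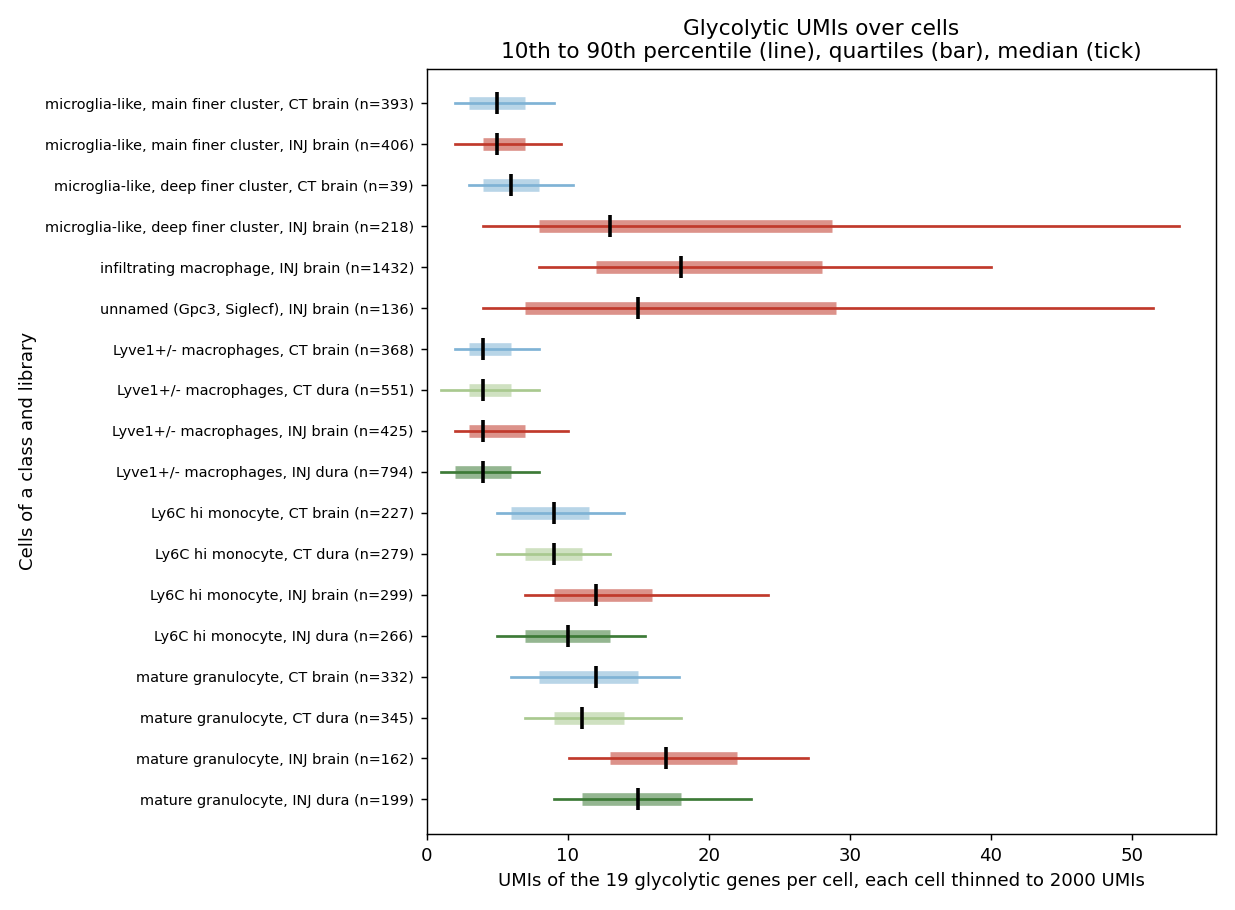
Glycolytic UMIs per cell after each cell was thinned to 2000 UMIs, by class and library, with a line from the 10th to the 90th percentile, a bar for the quartiles and a tick for the median. Infiltrating-like macrophages have a median of 18 and microglia-like cells of the main finer cluster a median of 5 in both brain libraries, while the deep finer cluster of INJ brain has a median of 13 and a 90th percentile of 53.3.

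With every cell thinned to 2000 UMIs, depth no longer differed between cells. Glycolytic UMIs then had a median of 4 in macrophages of all 4 libraries and of 18 in infiltrating-like macrophages (10th to 90th percentile 8 to 40). Ly6C hi monocyte-like cells had medians of 9 in CT brain and 12 in INJ brain, and of 9 and 10 in CT dura and INJ dura. Mature granulocyte-like cells had medians of 12 and 17 in CT and INJ brain, and of 11 and 15 in CT and INJ dura. The microglia-like cells of the deep finer cluster spread most, from 4 to 53.3 in INJ brain against 3 to 10.4 in CT brain.

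Ly6C hi monocytes are the blood cells from which infiltrating macrophages can derive. Between 299 such cells of INJ brain and 227 of CT brain, 6 of 18 glycolytic members (median 0.62) and 8 of 14 others (median 1.24) were higher and 0 lower, beside 3.51% of all genes called higher and 2.01% lower. Transport and lactate production led the glycolytic members, with Slc16a3 at 341 against 124 CPM (1.46, 1.29 to 1.62), Slc2a1 at 82.7 against 31.7 CPM (1.38, 1.06 to 1.72) and Ldha at 514 against 202 CPM (1.34, 1.22 to 1.47). Hilpda was at 79.7 against 11.3 CPM (2.82, 2.32 to 3.36), Ero1l at 94.0 against 19.8 CPM (2.25, 1.87 to 2.66) and Hif1a at 259 against 110.4 CPM (1.23, 1.06 to 1.41). P4ha1, the other collagen hydroxylase subunit, was higher here at 64.3 against 27.0 CPM (1.25, 0.90 to 1.62). In Ly6C low monocyte-like cells of brain 0 of 17 glycolytic and 5 of 11 other members were higher (Hilpda, Bnip3, Mif, Egln1 and Ero1l, with ratios of 1.05 to 2.78) and Ddit4 was lower (-1.22), beside 1.16% of all genes higher and 0.963% lower.

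Granulocytes rely on glycolysis at rest, and their glycolytic members stood high without injury. The glycolytic sum in mature granulocyte-like cells was 6069 CPM in CT brain and 6077 CPM in CT dura, against 2424 CPM in macrophages of CT brain. In INJ brain it was 8985 CPM, and 2 of 15 glycolytic members were higher than in CT brain, Tpi1 (1.11, 0.72 to 1.49) and Pgk1 (1.02, 0.80 to 1.24), beside 1.52% of all genes. Hilpda at 144 against 22.6 CPM (2.67, 2.15 to 3.23), Mif at 177 against 35.9 CPM (2.30, 1.87 to 2.75) and Ero1l (1.34) were higher among 9 others, and Ndrg1 was lower at 30.9 against 77.5 CPM (-1.33, -1.96 to -0.74), beside 3.73% of all genes lower. The number of members higher was 5 of 24 in all, 10 of 27 (5 of them glycolytic) when cells were gated on their markers directly and 2 of 15 (both glycolytic) when cells were thinned.

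A cluster of 138 cells of INJ brain, led by Gpc3 and Siglecf, was left without a name, and 1, 9 and 12 of its cells came from CT brain, CT dura and INJ dura. It held the granulocyte markers S100a9 (13617 CPM), Csf3r (1390.3 CPM) and Mmp9 (2679 CPM), and its median depth was 3008 UMIs. The hypoxia-induced members other than Mif summed to 3706 CPM in it, the highest of the classes of INJ brain shown, against 1649 CPM in infiltrating-like macrophages, 1280.4 CPM in microglia-like cells and 1057 CPM in mature granulocyte-like cells. Against the mature granulocyte-like cells of INJ brain 8 of 10 such members (median 2.14) and 5 of 15 glycolytic members (median 0.53) were higher, with 0 and 3 lower, but 28.7% of all genes were higher and 12.3% lower, and the median of all genes was 0.42. Hilpda was at 1226 against 144 CPM (3.09, 2.81 to 3.37), Bnip3 at 368 against 50.1 CPM (2.88, 2.40 to 3.38) and Egln1 at 163 against 30.9 CPM (2.39, 1.75 to 3.07). Egln3 was at 151 against 43.7 CPM (1.79, 1.21 to 2.39), above the 38.8 CPM of infiltrating-like macrophages. The lactate exporter Slc16a3 was lower at 440.1 against 1226 CPM (-1.48, -1.70 to -1.26), as were Hk3 (-1.30) and Pfkfb4 (-2.0).

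**Figure D4:**
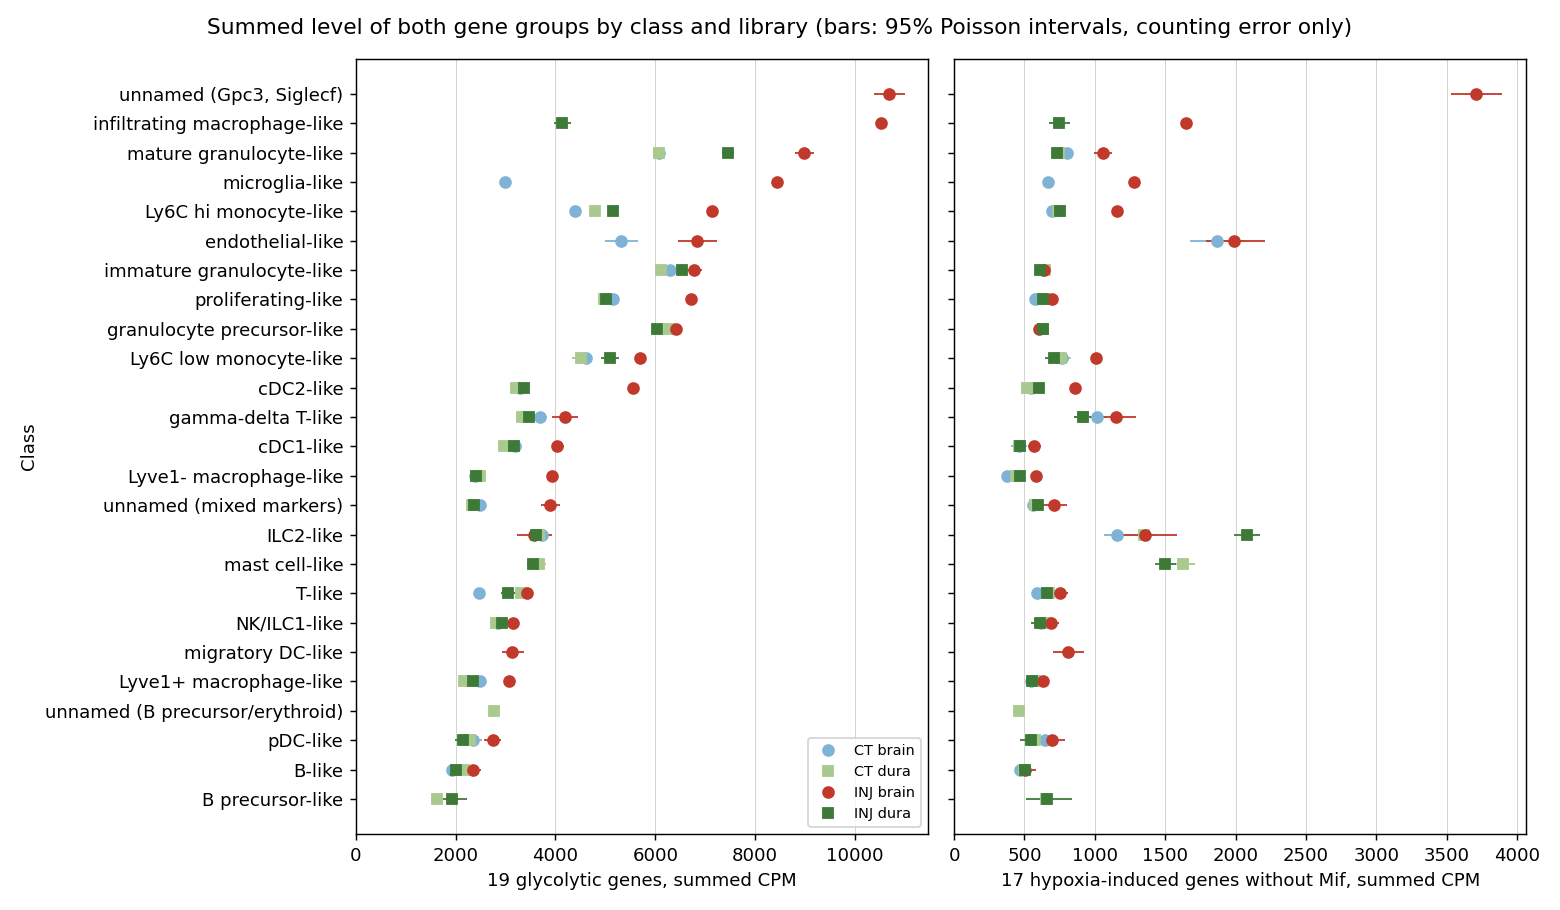
Summed CPM of the 19 glycolytic members and of the 17 hypoxia-induced members other than Mif, per class with at least 20 cells and per library, with exact Poisson 95% intervals. Infiltrating-like macrophages and the unnamed cluster led by Gpc3 and Siglecf reach 10532 and 10691 CPM of glycolytic members, and the unnamed cluster reaches 3706 CPM of hypoxia-induced members.

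Dendritic and lymphoid cells were compared in the same way. In cDC2-like cells of brain 7 of 17 glycolytic members (median 0.79) and 3 of 13 others (median 0.78) were higher in INJ than in CT, beside 3.26% of all genes, with Tpi1 at 247 against 79.2 CPM (1.64, 1.42 to 1.87), Bnip3 (1.81) and Mif (1.35). T-like cells of brain had 1 of 23 members higher, Hilpda, at 54.3 against 26.4 CPM (1.04, 0.53 to 1.54), beside 1.87% of all genes higher and 1.3% lower. The 54.3 CPM is 10.7% of the infiltrating-like level, but T-like cells of CT brain already held 26.4 CPM. Transcripts of the infiltrating-like markers Arg1, Gpnmb, Spp1 and Fn1 were found in T-like cells of INJ brain at 1.85% to 6.76% of the infiltrating-like level. In T-like cells of CT brain they were at 0.376% or less. The 10.7% therefore cannot be set directly against the marker shares. The part of free RNA in the Hilpda value was not tested. In gamma-delta T-like cells of brain Hk2 was lower at 89.1 against 221 CPM (-1.31, -1.998 to -0.68), beside 1.48% of all genes. Dura cDC2-like cells had 2 of 29 members higher, Slc16a3 (1.05, 0.64 to 1.45) and Ddit4 (1.53, 0.98 to 2.10), beside 0.868% of all genes. Of the 37 members, proliferating-like cells of INJ dura had Hilpda (-1.41) and Ddit4 (-1.25) lower beside 1.22% of all genes. Proliferating-like cells of INJ brain had Bnip3 (1.77) and P4ha1 (1.32) of the 37 members higher, a share not far above the 4.12% of all genes.

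In the remaining class comparisons of INJ against CT, 0 members were called. In the brain this held for B-like cells (0.535% of all genes higher and 6.02% lower), NK/ILC1-like cells (0.588% and 0.706%), ILC2-like cells (1.01% and 2.02%), cDC1-like cells (2.83% and 1.15%), pDC-like cells (2.04% and 0.968%) and immature granulocyte-like cells (2.15% and 2.24%). In the myeloid cells of the dura mater the shares of all genes were 0.611% and 0.576% for Lyve1+ macrophage-like, 0.258% and 0.378% for Lyve1- macrophage-like, 1.34% and 0.838% for Ly6C low monocyte-like, 0.569% and 1.09% for immature granulocyte-like, 0.398% and 0.936% for granulocyte precursor-like, 0.709% and 0.567% for cDC1-like and 0.649% and 0.611% for mast cell-like cells. In its lymphoid cells and pDCs they were 0.458% and 0.229% for T-like, 0.0% and 0.282% for gamma-delta T-like, 0.374% and 0.0% for NK/ILC1-like, 1.24% and 0.184% for ILC2-like, 0.0996% and 0.597% for B-like, 2.1% and 6.04% for B precursor-like and 0.444% and 1.78% for pDC-like cells. Between 7 and 32 of the 37 members had 100 UMIs in these comparisons, and the others could not be called.

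Several members stood higher in other classes than in infiltrating-like macrophages. Slc2a1 was at 2995 CPM in endothelial-like cells of CT brain and 3724 CPM in those of INJ brain, where it carries glucose across the blood-brain barrier, against 83.5 CPM in infiltrating-like macrophages. Slc16a3 was at 1202 to 1468 CPM in mature granulocyte-like cells of the 4 libraries. Ndrg1 was at 814 and 637 CPM in mast cell-like cells of CT dura and INJ dura, and P4ha2 at 138 and 162 CPM. Hilpda was high in ILC2-like cells of every library, at 503 CPM in CT brain, 655 CPM in INJ brain, 628 CPM in CT dura and 1252 CPM in INJ dura, and the log2 ratio in dura (0.997) fell just short of 2-fold. The hypoxia-induced members other than Mif summed to 1157 CPM in ILC2-like cells of CT brain, against 443 CPM in macrophages of the same library.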

How the data were processed

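CD45+ cells of 4 libraries (CT brain, CT dura, INJ brain, INJ dura; 1 per condition) were analysed. Per the labels, the authors used Cell Ranger 3.1.0, Seurat 3.1.0 and mm10. The deposited values are natural log values, ln(1 + UMIs of a gene / UMIs of the cell × 10000), with genes filtered in each library (17485 to 17862 listed). UMI counts were recovered from them, and 100.0% of values came out whole within a relative tolerance of 1e-06, so the deposited log values were treated as counts after that step, which the design written from the labels had assumed. A gene not listed in a library counted as 0. Sums near 3 UMIs or fewer carry little information, and 3 UMIs is the floor used for a count of 0.

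Cells were kept with over 1000 and under 6000 genes and a mitochondrial share of 7% or less. The Scrublet threshold (scanpy 1.11.5) marked under 0.5% of barcodes, so the top scores were removed instead, at 0.8% per 1000 barcodes. Clustering used Seurat 5.3.0 in R 4.3.3 (2500 variable genes without 55 member and pathway genes, 30 components, 20 neighbours, resolution 0.6). A cluster was named from the marker list with most genes among its top 10 by fold, given 3 markers detected in 10% of cells, and left unnamed where an opposing lineage matched. UMIs were summed per class (at least 20 cells) and library to CPM with exact Poisson 95% intervals, and ratios carry the exact conditional interval of 2 Poisson counts. Cells do not replicate a condition, so no p-value was computed. Computations used Python 3.11.15, numpy 2.4.6, scipy 1.17.1, pandas 2.3.3 and matplotlib 3.10.9, and the scripts were tested on simulated data. Gene positions come from GENCODE on GRCm38, which is mm10, and promoter windows from RefSeq on GRCm38.p6.

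All members are accounted for; those given in every library are Hif1a, Vhl and each member past 2-fold in the main comparison. The members, lists, markers and comparisons were chosen with earlier results of these data known. Alternatives changed the filter on cells, doublets, clustering genes, resolution, gating (1273 of 14098 cells lay near the gate), the summary over cells, depth and the centring. Removal of the deep microglia-like cluster and the CT dura reference were added after the data were seen.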

Additional observations from a re-analysis of the deposited data

How the results depend on the processing

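No paired analysis was possible because each condition has 1 library, and no library could be left out for the same reason. Of 148 list medians under alternatives, 142 stayed within the interval of the median over the members and 6 moved beyond it. Of 1797 ratios of single members under alternatives, 1316 stayed within their counting interval and 481 moved beyond it. No median past 2-fold and no called ratio changed sign, while 14 medians and 107 ratios short of a call did, the medians all being those of macrophages, Ly6C hi monocyte-like cells and granulocyte-like cells of dura. For glycolytic members of infiltrating-like macrophages against macrophages of INJ brain the median was 1.34, and 1.94 from the mean over cells of each cell's CPM, 2.02 with cells thinned to 2000 UMIs and 1.90 with no filter on cells. For hypoxia-induced members in microglia-like cells it was 1.58, and 0.41 with cells thinned (8 genes left with 100 UMIs) and 0.24 without the deep finer cluster. For glycolytic members in Ly6C hi monocyte-like cells of dura it was 0.07, and 0.16 with cells thinned. The main comparison ranged from 1.55 to 2.28 for glycolytic members and from 1.49 to 1.90 for hypoxia-induced members, with 23 members higher and 21 with cells thinned. Counts of members higher that moved by over 1.5 times were 20 in microglia-like cells (11 with cells thinned), 14 in Ly6C hi monocyte-like cells of brain (6 with cells thinned), 5 in granulocyte-like cells of brain (2 with cells thinned, 10 when gated), 4 in macrophages of brain (1 with the mean over cells, with no filter on cells or at resolution 1.2, 0 with doublets kept or cells thinned, 12 when gated) and 2 in granulocyte-like cells of dura (0 with cells thinned, 1 when gated, 3 relative to the median of all genes). Thinning leaves fewer genes with 100 UMIs; the other causes were not tested. Members under 10 CPM, such as Adm and Car9, rest on few UMIs and their differences are not detectable at this depth in most classes.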
